A study of Rattus norvegicus with 21 samples.

Results

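The genes described here take glucose into the cell, split it to pyruvate and turn pyruvate to lactate or hold it back from the citric acid cycle. They are the glucose carrier Slc2a1 (GLUT1), the hexokinases Hk1 and Hk2, the platelet-type phosphofructokinase Pfkp, triose phosphate isomerase Tpi1, phosphoglycerate kinase Pgk1, enolase Eno1, the lactate dehydrogenase subunits Ldha and Ldhb, and pyruvate dehydrogenase kinase Pdk1. They were chosen by name: every probe set of the Affymetrix rat expression array whose platform annotation gives 1 of these 10 symbols, which came to 17 of 31099 probe sets for 10 of 10 genes. Of the 17, 3 were Affymetrix control probe sets along the hexokinase transcript and 14 were ordinary probe sets. RNA came from the anterior pituitary of male rats of 3 inbred strains: ACI, the Copenhagen rat (COP) and the Brown Norway rat (BN). Each strain gave 4 arrays of rats that carried an implant with 5 mg of the synthetic estrogen diethylstilbestrol (DES) and 3 arrays of controls with an empty implant, both placed when the rats were 9 weeks old, which made 21 arrays. All rats, controls included, received BrdU at 50 mg/kg 4 hours before death at 21 weeks, after 12 weeks of treatment. The series design counts each array as a biological replicate, but the notes on the samples name 2 independent control and 3 independent DES replicates per strain, so part of the spread between arrays may be technical. The rats were of 1 sex, 1 dose and 1 time, and the arrays read bulk tissue.

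Glycolysis turns glucose to pyruvate in the cytosol with a small gain of ATP. Entry through the GLUT carriers, trapping by hexokinase and the committed step at phosphofructokinase are its main points of control. At its end, lactate dehydrogenase, a tetramer of A (Ldha) and B (Ldhb) subunits, interconverts pyruvate and lactate, and A-rich tetramers favor lactate formation while B-rich tetramers favor its oxidation. Pdk1 phosphorylates and inactivates pyruvate dehydrogenase, which otherwise feeds pyruvate to the citric acid cycle. Estrogen makes the lactotrophs of the rat pituitary grow and divide.

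After DES the 10 genes did not move as a block. Ldha, Tpi1 and Pdk1 rose in all 3 strains, Ldhb, Pfkp and Eno1 fell in all 3, Slc2a1 rose in ACI and COP, Hk1 fell in ACI, and Hk2 and Pgk1 passed the test in no strain. Of the 14 probe sets, 12 were bright enough to be tested, with a signal over the 40th percentile of its array in 3 arrays or more, and 11 of those reached it on all 21 arrays. With limma and Benjamini-Hochberg adjustment over all 21858 probe sets tested (adjusted p under 0.05, here termed called), 5 rose and 4 fell in ACI, where 49.1% of all probe sets were called, 19.8% higher and 29.3% lower. In COP 5 rose and 3 fell, beside 43.1% called among all probe sets (17.9% higher, 25.2% lower). In BN 4 rose and 3 fell, beside 33.5% called (14% higher, 19.4% lower). Calls in the same direction in all 3 strains made up 9.27% of all probe sets for a rise and 13.4% for a fall. For the 10 genes the median log2 change was 0.05 (ACI), 0.20 (COP) and 0.05 (BN), and for all probe sets it was -0.13, -0.09 and -0.06 in the same strains. Log2 changes are of signal + 16, so they understate changes of dim probe sets.

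**Figure D1:**
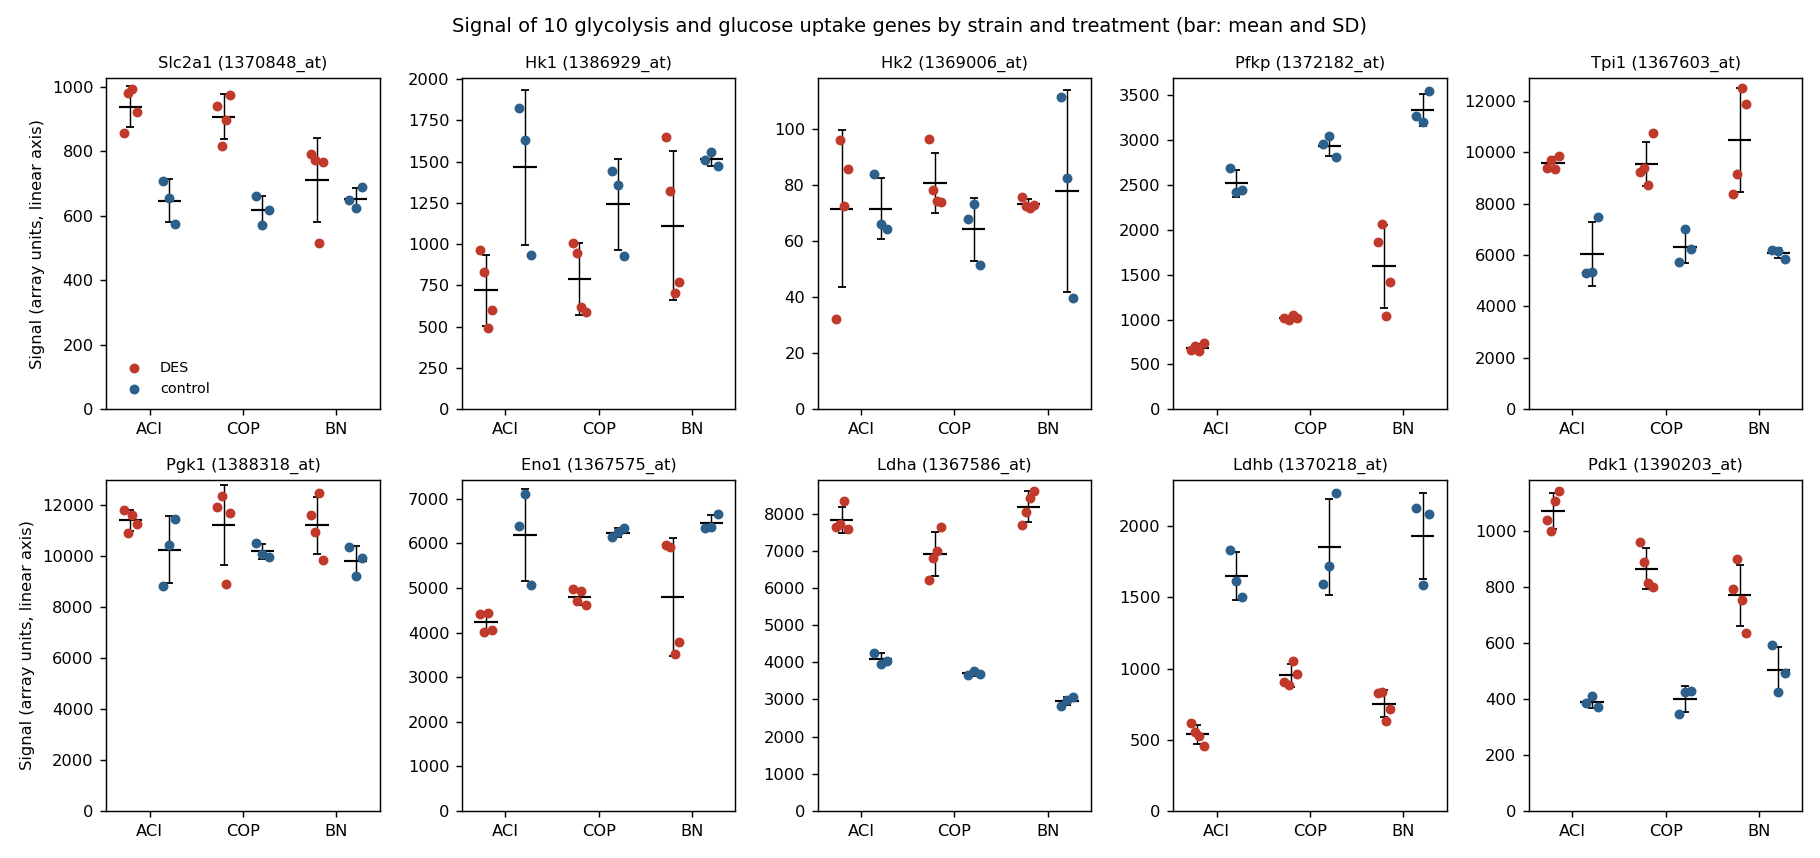
Signal in array units (linear axis) of the 10 genes, each by its brightest probe set, on the 21 arrays: DES arrays in red, left of the control arrays of the same strain in blue, with the group mean and SD as bars. Ldha is at 6227.3 or more on all 12 DES arrays and at 4260.7 or less on all 9 control arrays, Ldhb and Pfkp lie lower on every DES array than on every control array, and Pgk1 overlaps in all strains and Hk2 in ACI and BN.

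On the scale of the whole series, each array had been scaled to the same trimmed mean, and the array medians ran from 118.8 to 151.45. Median centring of the arrays moved the median change of all probe sets in ACI to 0.08, and with it 6001 of 10446 called probe sets were higher, against 4328 of 10725 as deposited. Prolactin (Prl) was bright on all arrays, with mean signals of 41970 to 48770 in the DES groups against 27610 to 32220 in the control groups. Pomc, the corticotroph prohormone, was dim, with group means of 54 to 163 after DES against 171 to 307 in controls. BN DES array 3 held the brightest signal of the series and the brightest cre spike-in (60932.7, against at most 41174.9 elsewhere), and values that rest on it are marked below. The 3' set of this spike-in, a transcript added to the hybridization mix and not made by the tissue, was also higher on DES arrays, by a mean log2 of 0.40 in ACI, 0.54 in COP and 0.69 in BN. Prl rose by 0.62 in COP and 0.77 in BN (limma adjusted p = 0.00924 and 0.0025) and was not called in ACI (0.40, adjusted p = 0.0757), which is about the size of the spike-in's own shift. The part of this shift in the changes of bright genes was not tested. BN control array 3, 1 of the 3 BN controls, had the highest ratios of the 3' to the 5' control set. They were 7.241 for beta-actin (at most 4.478 elsewhere) and 8.283 for hexokinase (at most 5.198 elsewhere).

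The promoters of the genes that moved are shown because the genes of 1 direction can be compared with those of the other. The sequences are RefSeq, rat build GRCr8, 250 bases before to 50 after the annotated start, and 9 of the 10 genes had an entry, with 11 promoters in all. Pgk1 had none in the table. Capitals mark ACGTG or GCGTG, the core of the hypoxia response element, on either strand, so CACGT and CACGC in capitals are matches on the reverse strand. The E-box CACGTG reads ACGTG on both strands and so counts as 2 matches. Of the genes that rose, Ldha (chr1:106507842-106508141, plus strand), Pdk1 (chr3:77113264-77113563, plus strand) and Slc2a1 (chr5:138002272-138002571, plus strand) are printed.
Ldha: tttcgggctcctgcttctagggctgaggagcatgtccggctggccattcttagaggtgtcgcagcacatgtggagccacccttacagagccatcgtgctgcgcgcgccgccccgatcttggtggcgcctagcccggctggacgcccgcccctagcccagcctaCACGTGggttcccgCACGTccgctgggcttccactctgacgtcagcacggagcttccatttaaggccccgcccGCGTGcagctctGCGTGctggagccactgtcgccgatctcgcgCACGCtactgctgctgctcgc
Pdk1: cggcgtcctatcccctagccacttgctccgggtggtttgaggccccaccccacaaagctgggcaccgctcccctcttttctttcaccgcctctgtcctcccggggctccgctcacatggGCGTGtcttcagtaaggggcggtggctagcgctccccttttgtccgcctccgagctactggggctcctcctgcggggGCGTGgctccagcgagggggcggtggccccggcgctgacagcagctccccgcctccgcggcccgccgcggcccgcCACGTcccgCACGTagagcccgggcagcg
Slc2a1: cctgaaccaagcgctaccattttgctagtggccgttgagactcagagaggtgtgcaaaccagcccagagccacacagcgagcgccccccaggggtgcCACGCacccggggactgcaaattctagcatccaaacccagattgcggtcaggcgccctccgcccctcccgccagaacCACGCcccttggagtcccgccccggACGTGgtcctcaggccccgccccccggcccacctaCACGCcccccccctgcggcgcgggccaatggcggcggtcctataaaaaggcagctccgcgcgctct
Of the genes that fell, Ldhb (chr4:177177359-177177658, minus strand) and Pfkp (chr17:68639563-68639862, plus strand) are printed.
Ldhb: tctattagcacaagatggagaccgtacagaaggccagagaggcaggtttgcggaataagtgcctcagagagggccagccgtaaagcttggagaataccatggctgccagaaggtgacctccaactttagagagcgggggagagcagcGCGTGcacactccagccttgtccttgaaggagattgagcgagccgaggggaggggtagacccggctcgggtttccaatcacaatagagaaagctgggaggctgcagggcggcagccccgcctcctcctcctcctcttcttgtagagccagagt
Pfkp: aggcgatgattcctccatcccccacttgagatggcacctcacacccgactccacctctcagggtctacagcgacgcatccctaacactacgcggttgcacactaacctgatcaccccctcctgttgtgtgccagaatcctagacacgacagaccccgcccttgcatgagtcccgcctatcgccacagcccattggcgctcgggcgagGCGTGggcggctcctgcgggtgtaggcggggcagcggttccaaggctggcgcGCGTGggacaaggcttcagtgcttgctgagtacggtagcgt

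The Ldha promoter held 6 of these 5-base matches, including the only CACGTG among the 11 promoters, and the Pdk1 and Slc2a1 promoters held 4 each. Ldhb held 1 and Pfkp 2. The promoter of Tpi1, which also rose, held 0, and those of Eno1, which fell, held 1 and 2. Hk1 had 0 and 1 in its 2 promoters and Hk2 had 0. Among all 33469 promoters of the same length, 41.6% held ACGTG or GCGTG, 3.46% held 4 or more matches and 6.42% held CACGTG. The full palindromic estrogen response element was in none of the 11 windows and in 0.0269% of all promoters. A match is a description of the letters and not a bound site.

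The lactate dehydrogenase subunits moved in opposite directions. In ACI, Ldha signals were 7641.3, 7730.5, 8348.1 and 7591.4 on the DES arrays, against 4260.7, 3952.5 and 4024.7 on the control arrays. In COP they were 6227.3, 6792.8, 7001.9 and 7651.3 with DES, against 3647.2, 3775.1 and 3677.1. In BN they were 7687.4, 8038.3, 8421.5 and 8612.4 with DES, against 2834.8, 2975.9 and 3057.0. Every DES array was above every control array in each strain, a separation seen in 54% of all probe sets in ACI, 48.3% in COP and 36.8% in BN. The rise was 1.92-fold in ACI (log2 0.94 ± 0.082 SE, adjusted p = 3.58e-09), 1.86-fold in COP (0.90 ± 0.082, adjusted p = 1.17e-08) and 2.76-fold in BN (1.46 ± 0.082, adjusted p = 1.09e-11). The two-sided exact permutation p over the 35 splits of 4 DES and 3 control arrays was 0.0286 in each strain, the smallest it can give.

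Ldhb, the subunit of the heart-type enzyme, was 616.0, 552.8, 527.9 and 452.9 on the ACI DES arrays, against 1832.0, 1612.7 and 1504.5 on the ACI control arrays. COP had 904.2, 882.1, 1056.6 and 963.3 with DES, against 1597.8, 1723.3 and 2234.3 in controls. BN had 828.4, 834.7, 632.6 and 719.1 with DES, against 2127.0, 1584.1 and 2086.8 in controls. Again no DES array reached a control array. Ldhb was 3.02-fold lower with DES in ACI (log2 -1.59 ± 0.14, adjusted p = 4.00e-09), 1.92-fold lower in COP (-0.94 ± 0.14, adjusted p = 1.22e-05) and 2.53-fold lower in BN (-1.34 ± 0.14, adjusted p = 1.83e-07). The change of the ratio of Ldha to Ldhb within an array, which needs no scaling between arrays, was 5.78-fold in ACI, 3.57-fold in COP and 6.97-fold in BN toward Ldha, given without a test.

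**Figure D2:**
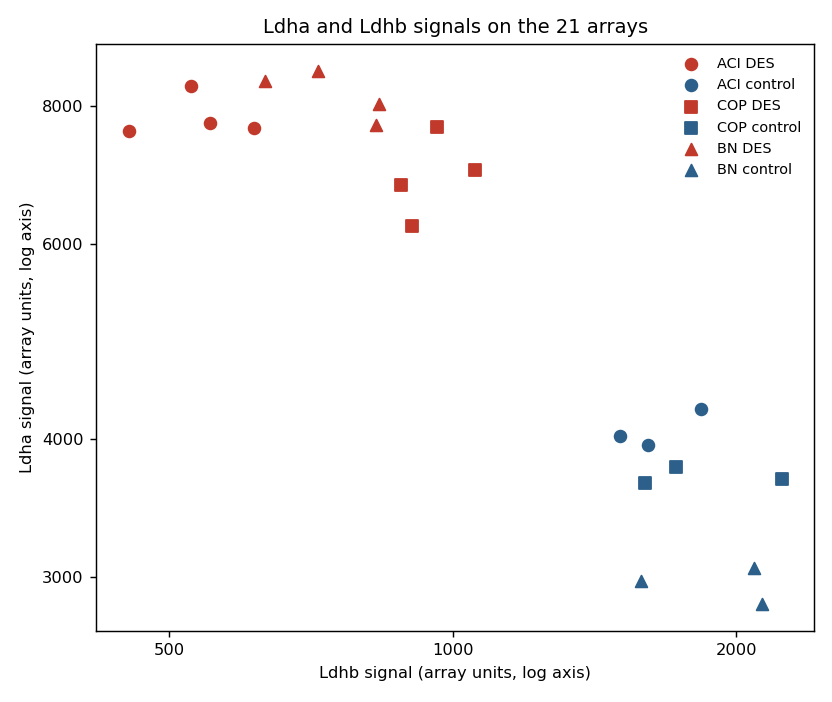
Ldha signal against Ldhb signal (both in array units on log axes) on the 21 arrays, with circles for ACI, squares for COP and triangles for BN, DES in red and control in blue. The 12 DES arrays occupy the upper left and the 9 control arrays the lower right, and BN control arrays have the lowest Ldha signals, 2834.8 to 3057.0.

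Pdk1, the kinase that shuts pyruvate dehydrogenase, had the largest rise among the 10 genes in ACI and COP by either of its probe sets, and in BN by 1368079_at only. By probe set 1368079_at it was 1358.8, 1260.0, 1389.7 and 1481.6 with DES in ACI, against 257.2, 237.2 and 184.1 in controls. In COP the values were 840.9, 1099.9, 1062.9 and 1157.7 with DES, against 247.5, 298.9 and 210.4. In BN they were 515.9, 480.0, 647.5 and 768.3 with DES, against 181.8, 198.5 and 209.3. The groups were apart in all strains, and the DES arrays of ACI lay above those of COP and these above those of BN, while the controls were called different between no 2 strains. The rise was 5.77-fold in ACI (log2 2.53 ± 0.16, adjusted p = 2.06e-11), 3.95-fold in COP (1.98 ± 0.16, adjusted p = 1.77e-09) and 2.87-fold in BN (1.52 ± 0.16, adjusted p = 2.01e-07). The other Pdk1 probe set, 1390203_at, gave a smaller change in the same direction, 2.69-fold in ACI (1.43 ± 0.13), 2.12-fold in COP (1.09 ± 0.13) and 1.52-fold in BN (0.60 ± 0.13), with adjusted p of 6.49e-09, 5.87e-07 and 0.00101.

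Of the genes at the entry of the pathway, the carrier Slc2a1 rose in ACI and COP. Its signals in ACI were 855.3, 981.9, 993.2 and 922.0 with DES, against 708.3, 653.8 and 575.5 in controls. In COP they were 941.4, 817.0, 896.0 and 975.8 with DES, against 661.8, 572.1 and 619.0, and in BN 790.9, 771.9, 514.4 and 765.2 with DES, against 648.8, 622.6 and 688.4. The groups were apart in ACI and COP and overlapped in BN only through DES array 3, the lowest of all 21. The fold was 1.44 in ACI (log2 0.53 ± 0.13, adjusted p = 0.00194), 1.46 in COP (0.54 ± 0.13, adjusted p = 0.00193) and 1.07 in BN, where it was not called (0.10 ± 0.13, 95% interval -0.17 to 0.37, adjusted p = 0.602). Without array 3 the BN value was 0.24, still not called.

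Pfkp, 1 of the 3 phosphofructokinase isoforms, fell in each strain. ACI had 665.2, 699.1, 649.2 and 732.5 with DES, against 2684.8, 2420.2 and 2444.7 in controls. COP had 1012.8, 991.8, 1047.7 and 1011.2 with DES, against 2959.3, 3047.2 and 2810.0, and BN had 1858.7, 2059.0, 1033.5 and 1412.8 with DES, against 3265.4, 3197.1 and 3542.5. No DES array reached a control array, and the BN DES arrays were more scattered (SD 459.4) than those of ACI (37.1) and COP (23.3). Pfkp was 3.61-fold lower with DES in ACI (log2 -1.85 ± 0.15, adjusted p = 9.34e-10), 2.86-fold lower in COP (-1.52 ± 0.15, adjusted p = 3.34e-08) and 2.15-fold lower in BN (-1.11 ± 0.15, adjusted p = 5.57e-06). The muscle isoform Pfkm and the liver isoform Pfkl, from the list of other enzymes below, were called in no strain, with log2 changes of -0.11 to -0.04 for Pfkm and -0.22 to 0.34 for Pfkl.

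In the later steps of the pathway, Tpi1 rose and Eno1 fell. Tpi1 averaged 9570 ± 243 with DES in ACI (SD, n = 4) against 6036 ± 1251 in controls (n = 3), 9524 ± 855 against 6321 ± 639 in COP, and 10463 ± 2015 against 6068 ± 198 in BN. Its log2 rise was 0.68 ± 0.13 SE in ACI (adjusted p = 0.000196), 0.59 ± 0.13 in COP (adjusted p = 0.00103) and 0.76 ± 0.13 in BN (adjusted p = 0.000121), with no overlap of DES and control arrays. The rises in COP and BN are close in size to the spike-in's shift there (0.54 and 0.69), and the rise in ACI is larger (shift 0.40). Quantile normalization gives all arrays the same distribution of signals. After it the Tpi1 rises were smaller, at 0.35 for ACI, 0.22 for COP and 0.43 for BN. The COP call was then lost (limma adjusted p = 0.0658). The rises of Ldha, a bright gene too, were 0.63 for ACI, 0.66 for COP and 1.30 for BN with that normalization and stayed called.

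Eno1 averaged 4229 ± 232 with DES in ACI against 6192 ± 1041 in controls, 4802 ± 174 against 6245 ± 107 in COP, and 4802 ± 1325 against 6463 ± 165 in BN (SD, n = 4 and 3). Its log2 change was -0.54 ± 0.15 SE in ACI (adjusted p = 0.00464), -0.38 ± 0.15 in COP (adjusted p = 0.0436) and -0.47 ± 0.15 in BN (adjusted p = 0.0178). The groups did not overlap in any strain (exact permutation p = 0.0286 in ACI and COP and 0.143 in BN), but these calls were close to the threshold. The COP call was lost when any 1 of its 7 arrays was left out (adjusted p 0.0577 to 0.104). The BN call was lost without control array 3 (-0.45, adjusted p = 0.0582), DES array 3 (-0.33, 0.0671) or DES array 4 (-0.37, 0.0698), and after median centring all 3 strains lost it (-0.32, -0.27 and -0.39 in ACI, COP and BN).

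Pgk1, which makes ATP in the step between Tpi1 and Eno1, was called in no strain by either tested probe set. By 1388318_at it averaged 11384 ± 403 with DES against 10236 ± 1325 in controls in ACI, 11208 ± 1557 against 10165 ± 281 in COP and 11187 ± 1108 against 9810 ± 574 in BN. The 95% intervals of the log2 change were -0.07 to 0.39 in ACI, -0.10 to 0.36 in COP and -0.05 to 0.42 in BN, and the direction turned after quantile normalization (-0.24, -0.28 and -0.25). By 1387361_s_at the intervals were -0.11 to 0.30, -0.33 to 0.08 and -0.23 to 0.17. Its further probe set, 1368906_at, stayed between 0.5 and 51.1 on all arrays and was not tested.

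The hexokinases, which trap glucose as its phosphate, differed in level and in how well they were measured. Hk2 was dim, at 32.1 to 111.5 over all arrays and above the 40th percentile on 8 of them, and its log2 change (± 0.29) came to -0.06 for ACI, 0.28 for COP and 0.01 for BN (adjusted p = 0.883, 0.483 and 0.989). Hk1 by 1386929_at was 966.9, 828.7, 491.5 and 601.2 with DES in ACI, against 1824.5, 1633.3 and 936.2 in controls. COP had 1006.4, 947.4, 619.2 and 588.3 with DES against 1442.2, 1357.4 and 927.6 in controls, and BN had 1648.4, 1321.9, 706.0 and 769.9 with DES against 1510.6, 1558.5 and 1473.3. The groups overlapped in all strains, and arrays numbered 3 and 4 were lower than those numbered 1 and 2 in every group, though only by log2 0.06 in BN controls. The change was called in ACI (log2 -0.996 ± 0.29, adjusted p = 0.00607) and not in COP (-0.66 ± 0.29, adjusted p = 0.0689) or BN (-0.53 ± 0.29, adjusted p = 0.165). With the 2 sets of numbers (1 and 2, 3 and 4) as a block it was called in all strains, at -0.88 for ACI, -0.54 for COP and -0.42 for BN (adjusted p = 1.09e-05, 0.00252 and 0.0215). The further Hk1 probe set 1398725_at read 2.7 to 62.6 and was not tested.

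The split by array number bears on Hk1 directly. With arrays 1 and 2 alone the log2 change of Hk1 came to -0.94 for ACI, -0.51 for COP and -0.06 for BN (adjusted p = 5.27e-06, 0.00191 and 0.765), and with arrays 3 and 4 alone it was -0.77, -0.61 and -0.98. Controls were numbered 1 to 3, so with arrays 3 and 4 alone each control group is 1 array, and these values are given without a test. The Affymetrix control sets along the hexokinase transcript differed by number too: the 3' set was 149.8 to 536.7 on arrays numbered 1 and 2 and 114.7 to 260.1 on those numbered 3 and 4, and the ratio of the 3' to the 5' set had a median of 2.70 on arrays 1 and 2 and of 3.65 on arrays 3 and 4. The labels do not say what the numbers stand for, and their part in the result was not tested. In BN the DES arrays 3 and 4 also read lower than DES arrays 1 and 2 for Eno1 (mean 3659 against 5945) and Pfkp (1223 against 1959) and higher for Tpi1 (12170 against 8754). The BN change by arrays 1 and 2 and by arrays 3 and 4 was -0.10 and -0.86 for Eno1, -0.72 and -1.54 for Pfkp, and 0.50 and 1.06 for Tpi1, while Ldha gave 1.43 and 1.47.

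**Figure D3:**
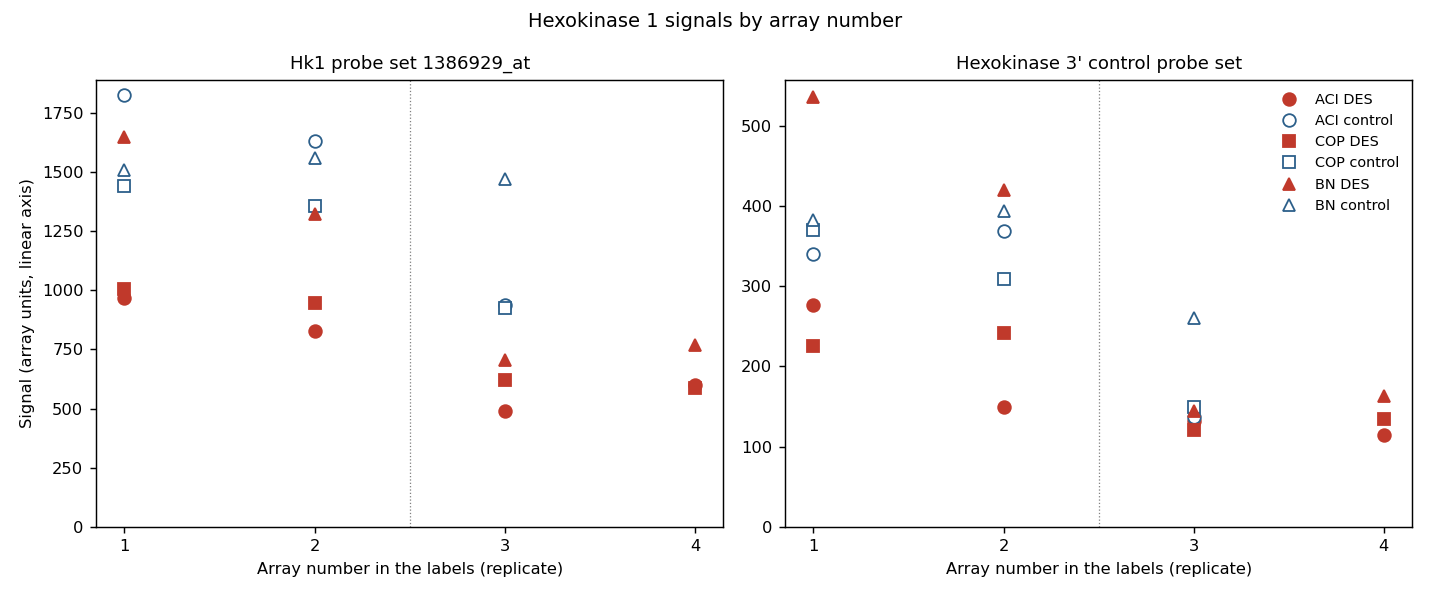
Signal (array units, linear axis) of Hk1 probe set 1386929_at at left and of the hexokinase 3' control probe set at right against the array number in the labels, with filled red marks for DES, open blue marks for control, circles for ACI, squares for COP and triangles for BN. Arrays 3 and 4, right of the dotted line, lie lower than arrays 1 and 2 in most groups, and the Hk1 signals of ACI and COP DES arrays lie below those of their controls with the same number.

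**Figure D4:**
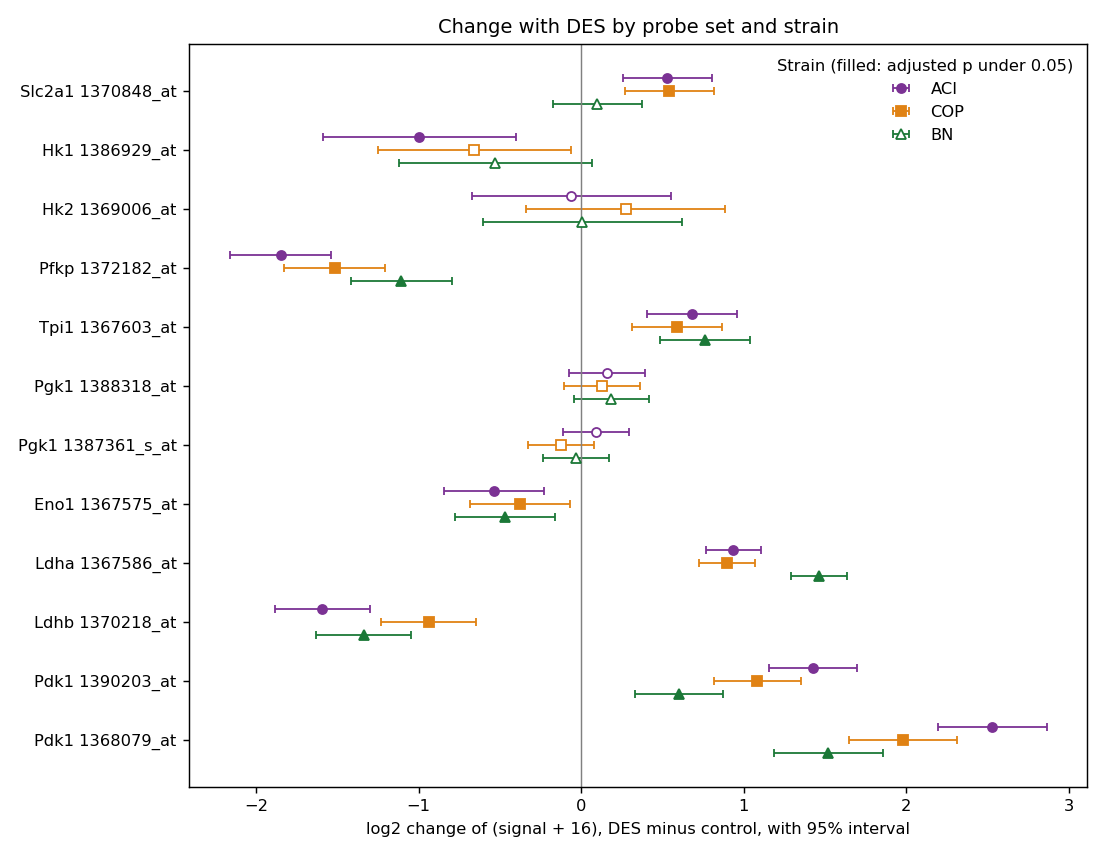
Log2 change of signal + 16, DES minus control, with its 95% interval for the 12 tested probe sets, by strain (circle ACI, square COP, triangle BN); filled marks have an adjusted p under 0.05. The values run between 2.53 for Pdk1 and -1.85 for Pfkp, both in ACI, and the intervals of Pgk1 and Hk2 span 0 in every strain.

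Whether the strains responded differently was tested as the difference of their DES responses. Between ACI and BN, 4 of the 12 probe sets differed (2 higher, 2 lower), where 14.1% of all probe sets did (6.23% higher, 7.91% lower). The response of Pdk1 was larger in ACI by log2 1.01 ± 0.23 (1368079_at, adjusted p = 0.00434) and 0.82 ± 0.18 (1390203_at, adjusted p = 0.00398). The response of Ldha was smaller in ACI than in BN, with a difference of -0.53 ± 0.12 (adjusted p = 0.00357), and that of Pfkp was -0.74 ± 0.21 (adjusted p = 0.0207), a deeper fall in ACI. The Pfkp difference was -1.16 with arrays 1 and 2 alone (adjusted p = 2.16e-05) and -0.26 with arrays 3 and 4 alone, where each control group is 1 array, and it was lost without ACI control array 1 (-0.70, adjusted p = 0.0541) or BN control array 2 (-0.71, adjusted p = 0.0512). Between COP and BN, Ldha alone differed (-0.57 ± 0.12, adjusted p = 0.00473), where 5.22% of all probe sets did, and Pfkp joined it without BN DES array 3 (-0.60, adjusted p = 0.0247). Between ACI and COP 0 of 12 differed by limma, against 0.526% of all probe sets, while the unadjusted 95% interval left out 0 for Ldhb (-0.66, -1.07 to -0.24, adjusted p = 0.177) and Pdk1 (1368079_at, 0.55, 0.08 to 1.02, adjusted p = 0.391). Slc2a1, called in ACI and COP but not in BN, did not pass the test of that difference (ACI minus BN 0.43, 0.04 to 0.82, adjusted p = 0.136, and COP minus BN 0.44, 0.06 to 0.83, adjusted p = 0.193).

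The Ldha levels of ACI and BN differed in control rats and were not called different with DES, whereas those of COP and BN differed in both. Its 6 group means ran BN DES 8190, ACI DES 7828, COP DES 6918, ACI control 4079, COP control 3700 and BN control 2956. Neighbors in that order did not pass the test for ACI against BN with DES (log2 -0.06, adjusted p = 0.560), ACI against COP with DES (0.18, adjusted p = 0.230) or ACI against COP in controls (0.14, adjusted p = 0.716). BN controls were lower than ACI controls (ACI minus BN 0.46 ± 0.088, adjusted p = 0.00152) and than COP controls (COP minus BN 0.32 ± 0.088, adjusted p = 0.0299). The call against COP controls was lost when any 1 of the 6 arrays was left out (adjusted p 0.0574 to 0.133), and with 3 arrays against 3 the exact permutation test can give no p under 0.10. No other of the 12 probe sets was called between control strains, where 6.77% of all probe sets were called for ACI against BN, 5.69% for COP against BN and 1.2% for ACI against COP.

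Among DES rats, ACI against BN had 3 probe sets higher and 2 lower, beside 31.3% of all probe sets called (13.7% higher, 17.6% lower). Pdk1 was higher in ACI by log2 1.19 ± 0.15 (1368079_at, adjusted p = 2.39e-06) and 0.48 ± 0.12 (1390203_at, adjusted p = 0.00405), Slc2a1 by 0.41 ± 0.12 (adjusted p = 0.0126), while Pfkp (-1.15 ± 0.14, adjusted p = 1.41e-06) and Ldhb (-0.48 ± 0.13, adjusted p = 0.00749) were lower. The Slc2a1 call was lost without BN DES array 3 (0.27, adjusted p = 0.0582). ACI against COP had Ldhb (-0.81 ± 0.13, adjusted p = 0.000381) and Pfkp (-0.56 ± 0.14, adjusted p = 0.0195) lower, beside 4.68% called (1.48% higher, 3.2% lower), and the Pfkp call was lost without ACI DES array 3 (-0.53, adjusted p = 0.0597) or COP DES array 3 (-0.54, adjusted p = 0.0553). COP against BN had Pdk1 (1368079_at, 0.79 ± 0.15, adjusted p = 0.00054) and Slc2a1 (0.36 ± 0.12, adjusted p = 0.0354) higher and Pfkp (-0.59 ± 0.14, adjusted p = 0.00343) and Ldha (-0.25 ± 0.076, adjusted p = 0.0235) lower, beside 22.2% called (10.4% higher, 11.8% lower). Of these, Slc2a1 was lost without BN DES array 3 (0.22, adjusted p = 0.151) or COP DES arrays 1, 3 or 4 (0.33 to 0.37), and Ldha without COP DES array 1 (-0.20) or 2 (-0.24) or BN DES array 4 (-0.22).

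The rest of the pathway was mixed in the same way. Of 11 other glycolytic enzymes tested, 3 rose and 2 fell in ACI, 2 rose and 3 fell in COP, and 3 rose and 3 fell in BN, each gene by its brightest probe set. Over all 11750 genes tested this way, ACI had 23.2% rise and 32.5% fall, COP 21.6% and 28.1%, and BN 16.9% and 22.6%. These shares also stand beside the DES counts of the further gene and marker lists below. Bpgm, which makes bisphosphoglycerate, fell in each strain (log2 -1.43, -1.23 and -0.63 in ACI, COP and BN), as did Aldoc, the brain-type aldolase (-1.80, -0.96 and -1.05), and Adpgk, an ADP-dependent glucokinase, rose (1.14, 0.75 and 0.81). Eno3, the muscle enolase, fell in COP (-1.18) and rose in BN (0.48), with -0.37 in ACI that was not called. The median log2 change of the 11 was 0.23, 0.06 and -0.02. Gapdh and Pkm could not be placed among the genes tested, because their probe sets carry several symbols. Affymetrix control sets along the GAPDH transcript, left out of the test, had higher group means with DES in each strain. The middle set averaged 13159 with DES against 8961 in controls in ACI, 14359 against 10099 in COP and 13004 against 8953 in BN. These values are given without a test. The cre spike-in, bright too, was higher with DES by a mean log2 of 0.40 in ACI, 0.54 in COP and 0.69 in BN. The part of that shift in the GAPDH values was not tested.

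Genes that set the pace of the pathway changed in both directions. Of 12 regulators, 3 rose and 3 fell in ACI, 3 rose and 4 fell in COP, and 2 rose and 4 fell in BN. Pfkfb3, which makes the bisphosphate that activates phosphofructokinase, rose in all strains, with mean signals of 544 with DES against 105 in controls in ACI, 551 against 93 in COP and 854 against 140 in BN (log2 2.31, 2.40 and 2.502 ± 0.31 each). Pdk4, like Pdk1 a kinase of pyruvate dehydrogenase, went the other way, with 113 against 637 in ACI, 290 against 472 in COP and 359 against 650 in BN (-2.34, -0.71 and -0.87 ± 0.22), and its fall was deeper in ACI than in BN (difference -1.47, adjusted p = 0.00239) and COP (-1.64, adjusted p = 0.0146). Pdp1, the phosphatase that undoes the work of these kinases, rose most in BN (0.40, 0.62 and 1.37, ACI minus BN -0.97, adjusted p = 0.00131). Txnip, which holds back glucose uptake, fell in each strain (-1.33, -1.13 and -1.11).

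Among 13 glucose and lactate transporters, 4 rose and 3 fell in both ACI and COP, while in BN 5 rose and 2 fell. Slc2a3 (GLUT3) fell where Slc2a1 rose, with mean signals of 208 with DES against 562 in controls in ACI, 190 against 446 in COP and 223 against 391 in BN (log2 -1.36, -1.17 and -0.79 ± 0.19). Slc2a13, a carrier of myo-inositol, fell as well (-0.99, -1.06 and -1.22). The monocarboxylate carrier Slc16a1 (MCT1) rose 0.996, 0.90 and 1.07 ± 0.14, and the fructose carrier Slc2a5 rose 0.81, 1.51 and 0.84 ± 0.24. For 10 genes of the pentose phosphate path and gluconeogenesis the counts were 3 up and 4 down in ACI and COP and 2 up and 2 down in BN, led by the mitochondrial phosphoenolpyruvate carboxykinase Pck2 (1.56, 1.52 and 1.38 ± 0.13).

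**Figure D5:**
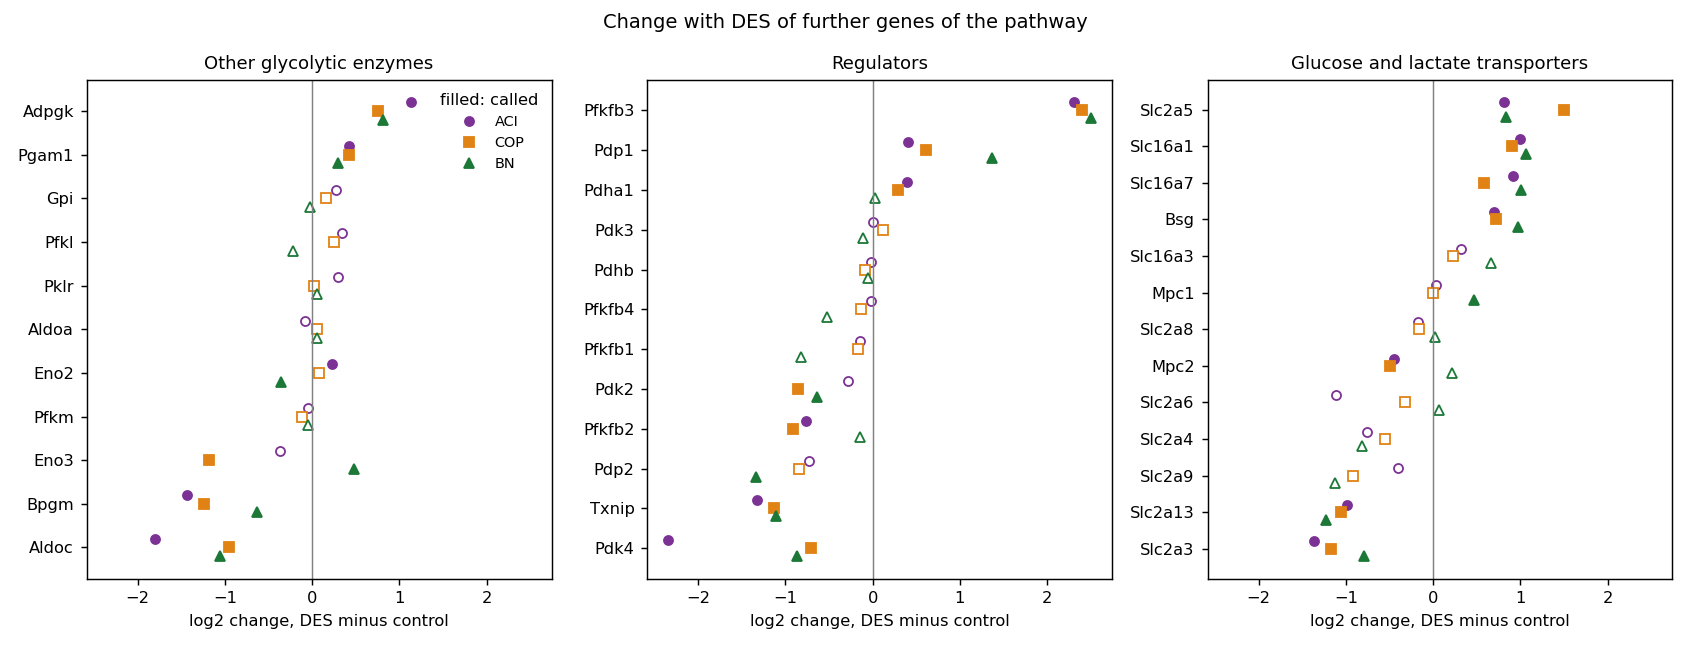
Log2 change, DES minus control, of further genes in 3 lists (other glycolytic enzymes, regulators, glucose and lactate transporters), 1 mark per strain (circle ACI, square COP, triangle BN) and filled where the adjusted p is under 0.05. Pfkfb3 lies near 2.4 in all strains, Pdk4 reaches -2.34 in ACI, and each panel holds genes on both sides of 0.

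Hypoxia-response genes are listed because several of the 10 genes are known targets of hypoxia-inducible factors. Of 16 tested, 8 rose and 3 fell in ACI, 7 rose and 3 fell in COP, and 5 rose and 3 fell in BN, with median log2 changes of 0.53, 0.33 and 0.39. The prolyl hydroxylase subunit gene P4ha1 rose (1.91, 1.77 and 1.36 ± 0.12) and Ankrd37 rose (1.08, 0.90 and 1.18 ± 0.10). Epas1, which encodes HIF-2alpha, fell (-2.29, -1.50 and -1.35 ± 0.11), and Ndrg1 fell (-1.63, -1.19 and -1.29 ± 0.15). The list thus held strong changes in both directions.

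Because the tissue was bulk, fewer cells of a type and less RNA per cell cannot be told apart. Signals of cell type markers moved with DES. Of 12 leukocyte and macrophage markers, 11 rose in ACI, 12 in COP and 5 in BN, where 1 fell, and their summed signal was 16930 to 20142.3 with DES against 6529.2 to 6757.8 in ACI controls, 17455.2 to 23747.1 against 4839.3 to 5784.3 in COP and 10140.5 to 16944 against 9699.5 to 11260.6 in BN. Of 6 gonadotroph markers, 6 fell in ACI, 6 in COP and 4 in BN, with sums of 1005.5 to 1185.7 with DES against 28123 to 35323.1 in controls in ACI, 1818.6 to 1966.7 against 31962 to 35952.3 in COP and 2892.9 to 3424 against 23444.7 to 31433 in BN. Of 6 folliculostellate markers, 4, 5 and 4 fell in ACI, COP and BN, with sums of 1852.2 to 2659 against 11898.2 to 13732.8, 3608.2 to 3940.4 against 12222.9 to 12949.3, and 6305.9 to 7653.1 against 15361.2 to 16944.6, DES before control. Of 8 endothelial markers, 5 fell in ACI, 1 rose and 2 fell in COP, and 1 rose in BN, where 7 were not called. Their sums were 2755.1 to 2894 with DES against 4281.1 to 5310.3 in controls in ACI, 3195.9 to 3847.1 against 3706.4 to 4268.5 in COP and 4315.8 to 5318.9 against 3340.8 to 4536 in BN. The BN call was Kdr, with means of 2351 with DES against 1239 in controls, so the BN sum does not stand for the list. The lowest group mean of a tested marker in these 4 lists was 33.1, for Cldn5 in ACI DES rats. That is under the 40th percentile of every array (67 to 90.6). Of 6 lactotroph markers, 1 rose and 2 fell in ACI, 2 rose and 2 fell in COP, and 3 rose and 2 fell in BN. The sum of these markers, most of it Prl, was 68348.7 to 80370.3 with DES against 41809 to 58811.4 in ACI controls. In COP it was 69519 to 82884.7 against 46758.6 to 50755.8, and in BN 59843.4 to 100541.5 against 39101.3 to 43248.1. Tmem35a, called higher in each strain, added to the rise of the sum. Its group means were 21710 with DES against 1007 in controls in ACI, 21490 against 1359 in COP and 20230 against 1728 in BN. Pou1f1 and Agtr1b were called lower in each strain. Of 6 neural lobe and nerve markers, 1 rose in each strain, Gap43, a growth cone protein of nerve cells (log2 4.57 for ACI, 4.49 for COP and 3.78 for BN), and 3, 4 and 2 fell. Their sum was 4446.8 to 5167.9 with DES against 3931.1 to 4365.2 in ACI controls. In COP it was 5337 to 5936.4 against 4150.2 to 4900.5, and in BN 4210.3 to 5229.4 against 3856.8 to 4356.3. This sum holds the rise of Gap43, from means of 107.7 to 2857 in ACI, 126.6 to 3096 in COP and 124.1 to 1918 in BN. Nefl and Mbp were called lower in each strain, so the sum does not stand for the list. In the ACI minus BN response, 9 of the 12 leukocyte and macrophage markers were higher, and 6 of 6 gonadotroph, 4 of 6 folliculostellate, 3 of 8 endothelial and 2 of 6 neural lobe and nerve markers were lower, while 2 lactotroph markers were higher and 1 was lower. In the COP minus BN response, 10 leukocyte and macrophage markers were higher, and 2 gonadotroph markers and 1 each of the folliculostellate, endothelial, neural lobe and nerve, and lactotroph lists were lower. The part of these cell types in the changes of the glycolysis genes was not tested.

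The genes outside the group whose signals followed each of the 10 most closely over the 21 arrays are given as a description, since treatment moves most of them. Ldha was followed by LOC102553536 and Dusp26 (Pearson r = 0.974 and 0.971), Pdk1 by Plpp5 and Tafa5 (0.972 and 0.966), Tpi1 by Tmem223 and Prdx4 (0.976 and 0.9746) and Slc2a1 by Srp68 and Pgm1 (0.945 and 0.926). Of the genes that fell, Pfkp was followed by Aldh4a1 and Mtmr7 (0.977 and 0.977), Ldhb by Plat and Osbpl5 (0.967 and 0.965), Eno1 by Gtf2i and Pip4k2b (0.968 and 0.957) and Hk1 by Cbx6 and Cry2 (0.963 and 0.936). Pgk1 (Ndufa4l2, 0.764) and Hk2 (Tpsb2, 0.700) had no partner as close.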

How the data were processed

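Arrays were made from RNA of single anterior pituitary glands. The deposited values were probe set intensity signals (linear, not log), and every array had the same trimmed mean, so the authors had scaled them. Neither a label nor the methods name the software behind these values. No scaling was added. Signals were taken to log2 after adding 16. A probe set was tested where its signal passed the 40th percentile of the array in 3 arrays or more, and 57 Affymetrix control probe sets were left out. With limma 3.58.1 (R 4.3.3) the 21 arrays entered 1 fit of 6 group means (lmFit, then eBayes with a mean-variance trend), and two-sided p values were adjusted by Benjamini-Hochberg within each of the 12 comparisons over 21858 probe sets. The procedure was run on simulated data with independent noise, in which few probe sets changed and only in ACI DES arrays. That run does not speak for data with as many changes as these. Exact permutation tests were run over arrays for each probe set of the 10 genes. In the annotation, 20826 probe sets had 1 symbol, 436 several and 9780 none. A gene was represented by its brightest probe set with a single symbol.

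The members and gene lists were chosen with earlier results of these data known. All 10 genes are named with all their probe sets. From each other list up to 4 genes with the smallest adjusted p in a DES comparison are named, with marker genes beside results, and 2 genes of closest pattern per member. Pfkm and Pfkl, isoforms of Pfkp, were added after their values were seen. Alternatives covered the filter, pseudocount, scaling, variance trend, blocks, array numbers, groups in the fit and leaving out each array. The small number of arrays in a group limits precision.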

Additional observations from a re-analysis of the deposited data

Results flagged for a closer look

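In 36 groups of 4 DES arrays (12 probe sets in 3 strains), 2 arrays stood far from the other 3 by Dixon's criterion at 95%, which chance flags in about 1 in 20 groups. Pgk1 by 1388318_at read 8907.3 in COP DES array 3, against 11691.1 to 12327.0 on the other COP DES arrays. Slc2a1 read 514.4 in BN DES array 3, against 765.2 to 790.9 on the other BN DES arrays, and this is also the array with the brightest signal of the series.

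Between strains the DES response differed by the interaction test for 5 of the probe set comparisons. For ACI minus BN, 2 of 12 probe sets were higher and 2 lower, beside 14.1% of all probe sets called (6.23% higher, 7.91% lower). For COP minus BN, 1 of 12 was lower, beside 5.22% called, and for ACI minus COP 0 of 12 differed, beside 0.526%. Ldha differed by -0.53 between ACI and BN and by -0.57 between COP and BN, being larger in BN. Pdk1 differed by 1.01 (1368079_at) and 0.82 (1390203_at) between ACI and BN, being larger in ACI. Pfkp differed by -0.74 between ACI and BN. Markers of other cell types differed in the same contrasts. For ACI minus BN, 9 of 12 leukocyte and macrophage markers were higher, and 6 of 6 gonadotroph, 4 of 6 folliculostellate, 3 of 8 endothelial and 2 of 6 neural lobe and nerve markers were lower. For COP minus BN, 10 of 12 leukocyte and macrophage markers were higher and 2 of 6 gonadotroph markers lower. Their part in these differences was not tested.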

How the results depend on the processing

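The number called among the 12 probe sets stayed within 1.5 times its value for DES against control in each strain, for the ACI minus BN and ACI minus COP responses, for ACI against BN with DES and for ACI against COP controls. For COP minus BN responses (1 called) it was 2 with arrays 1 and 2 alone and 1 to 2 leaving out an array (2 without BN DES array 3). Over all 21858 probe sets, 1142 were called there, and 1485 with arrays 1 and 2 alone. For ACI against COP with DES (2) it was 1 with median centring and 1 to 2 leaving out an array. Of all probe sets, 1024 were called there, and 1058 with median centring. For COP against BN with DES (4) it was 1 with only the groups compared, and 2 without COP DES array 1. With only the groups compared, 2917 of all probe sets were called, against 4859. For ACI against BN controls (1) it was 2 with arrays 1 and 2 alone, where 3137 of all probe sets were called, against 1479. For COP against BN controls (1) it was 0 without the filter, 0 without the variance trend and 0 leaving out any array. All probe sets called there were 1243, with 1108 of 31042 without the filter and 1199 without the variance trend. With arrays 3 and 4 alone each control group is 1 array, assumed to vary like the other groups. Counts from that setting say nothing of stability and are not given.

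The replicate block gave 9, 8 and 8 called in ACI, COP and BN (9, 8 and 7 without it), adding Hk1 in COP (-0.54, adjusted p = 0.00393) and BN (-0.42, 0.0288) and losing Eno1 in COP (-0.33, 0.0521). Among DES rats it gave 6 for ACI against BN (5 without it) and 5 for COP against BN (4 without it). Calls over all probe sets rose with this block too, from 10725 to 11472 in ACI, 9419 to 10044 in COP and 7316 to 7835 in BN. Among DES rats they went from 6832 to 7984 for ACI against BN and from 4859 to 5929 for COP against BN. Same-numbered arrays correlated at 0.0805 to 0.238 in 9 pairs, 5 of them over 0.1, so the numbers were not taken as pairs. All but 1 pair (8 of 9) correlated best with their own number, a hint from the data and not from the design.

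Signs turned only for values that were not called. Hk2 in ACI turned to 0.16 with median centring, 0.11 with quantile normalization and 0.24 with arrays 3 and 4, and ranged from -0.20 to 0.21 leaving out an array. Hk2 in BN turned to -0.015 with a pseudocount of 64, -0.0495 with quantile normalization, -0.013 with the replicate block and -0.31 with arrays 1 and 2, and ranged from -0.33 to 0.27 leaving out an array. Pgk1 by 1387361_s_at turned in ACI to -0.093 with quantile normalization and -0.0061 with arrays 1 and 2 (-0.0048 to 0.16 leaving out an array), and in BN to 0.053 with median centring and 0.11 with arrays 1 and 2 (-0.076 to 0.017 leaving out an array). Pgk1 by 1388318_at turned with quantile normalization to -0.24 in ACI, -0.28 in COP (there with adjusted p = 0.045) and -0.25 in BN, and in ACI to -0.0055 with arrays 3 and 4. Slc2a1 in BN turned to -0.13 with arrays 3 and 4. Among ACI minus BN responses, Eno1 turned to 0.067 with median centring and 0.60 with arrays 3 and 4 (-0.20 to 0.052 leaving out an array), Tpi1 to 0.051 with median centring and 0.34 with arrays 1 and 2 (-0.18 to 0.082 leaving out an array), and Hk1 to 0.22 with arrays 3 and 4. The COP minus BN response of Pfkp turned to 0.10 with arrays 3 and 4. The cause was not tested.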
